A study of Rattus norvegicus with 12 samples.

Results

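The genes examined here encode the enzymes that make, interconvert, oxidize and sulfate estrogens, together with the receptor that controls several of them. They are Cyp19a1, Hsd17b1, Hsd17b2, Cyp1a1, Cyp1a2, Cyp1b1, Sult1e1, Sult1a1 and Ahr. Every probe set (the group of array probes that reads one transcript) whose only annotated symbol was one of these 9 was taken, with no filter on low values, which gave 12 of the 31099 probe sets on the arrays and 9 of the 14217 genes with a probe set of their own. Cyp19a1 had 3 probe sets, Ahr had 2, and each of the other genes had 1.

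RNA came from whole testes of male Sprague-Dawley rats on postnatal day 34, hybridised to Affymetrix rat arrays. All pups were nursed under a casein AIN-93G diet. From postnatal day 21 to 33 the casein group stayed on that diet, and the soy group ate AIN-93G with soy protein isolate, which carries isoflavones, in place of casein. The casein with estradiol and soy with estradiol groups ate the same diets and received 17beta estradiol at 10 µg per kg per day under the skin from osmotic minipumps. There were 3 arrays in each of the 4 groups. Whether each array stood for a separate animal was not given, so p-values measure only the spread between these samples, which may be technical.

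Estrogens are made from androgens by aromatase, the product of Cyp19a1, in the endoplasmic reticulum. Hsd17b1 reduces estrone to estradiol, and Hsd17b2 oxidizes estradiol back to the weaker estrone. Cytochromes P450 of family 1 hydroxylate the estrogen ring, and sulfotransferases add a sulfate that keeps the hormone off its receptors. The aryl hydrocarbon receptor, Ahr, is a ligand-activated transcription factor that pairs with Arnt and induces Cyp1a1, Cyp1a2 and Cyp1b1. In the testis these steps take place in Leydig, Sertoli and germ cells, with Leydig cells the main source of the androgen substrate.

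The regions just upstream of Cyp1a2 and Sult1a1 are shown because these genes were called in a comparison below, were read above the low range of the arrays, and had a window that ended at the edge of the annotated gene. The sequences are the 250 bases before the annotated start in RefSeq, build GRCr8, written 5′ to 3′ on the gene's strand. GCGTG, the core of the Ahr and Arnt binding motif, and TATAAA, a core promoter element, were searched on both strands, and capitals mark a match. The regions are chr8:66978150-66978399 for Cyp1a2 and chr1:190706113-190706362 for Sult1a1, both on the minus strand.
Cyp1a2: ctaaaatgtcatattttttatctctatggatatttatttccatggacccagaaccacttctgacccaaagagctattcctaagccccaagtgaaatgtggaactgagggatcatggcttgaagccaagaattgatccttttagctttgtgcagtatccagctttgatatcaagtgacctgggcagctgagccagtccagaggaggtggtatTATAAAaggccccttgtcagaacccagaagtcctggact
Sult1a1: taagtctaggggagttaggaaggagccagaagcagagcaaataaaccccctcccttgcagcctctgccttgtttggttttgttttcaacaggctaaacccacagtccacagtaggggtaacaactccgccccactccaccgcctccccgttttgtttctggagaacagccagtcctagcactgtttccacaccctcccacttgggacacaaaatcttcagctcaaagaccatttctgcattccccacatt
The Cyp1a2 window held TATAAA at position -39 from the start, and neither window held GCGTG, which says only that these letters are not in them. Of 33469 RefSeq windows of the same length, 25.9% held GCGTG and 12.9% held TATAAA. The Ahr window held neither string. The windows listed for Cyp1b1 and Sult1e1 lay inside the annotated span of the gene and are not shown or described. Cyp19a1, Cyp1a1, Hsd17b1 and Hsd17b2 had no entry. Cyp1a1 and Cyp1a2 are neighbours in that gene table.

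Levels below are log2 probe set intensities after quantile normalization, and differences are on the log2 scale. Levels of different probe sets cannot be set against each other. Of the 12 probe sets, 8 had a mean over all arrays below 5.69, the level under which the lowest 30% of all probe sets lay. These were the 3 of Cyp19a1, the 2 of Ahr and those of Hsd17b2, Cyp1a1 and Sult1e1. Background was not measured, so these probe sets may be near it, and a difference between such values may then understate a change in transcript. Differences in this range also depended on how the arrays were scaled, as given below. Hsd17b1 lay at that level with a mean of 5.69, Cyp1a2 little above it, and Sult1a1 (8.99) and Cyp1b1 (9.90) were well above it.

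**Figure D1:**
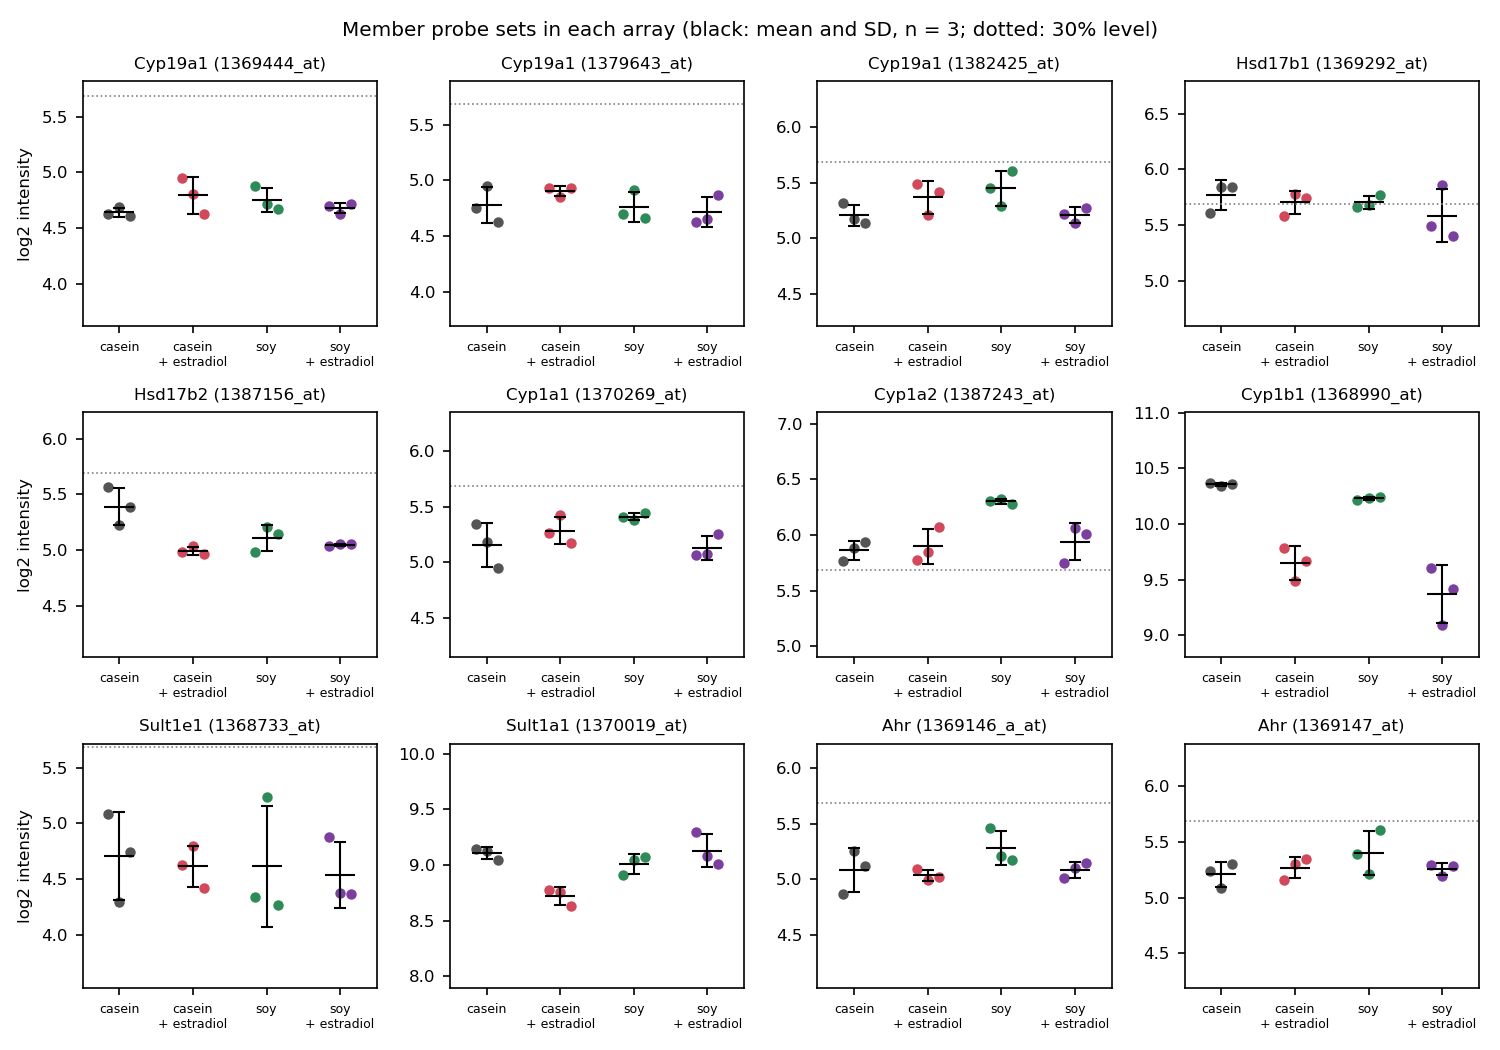
Log2 intensity of the 12 probe sets (vertical axes, each spanning the same number of log2 units) in the 4 groups, with 1 coloured point per array, in replicate order from left to right, and the group mean and SD (n = 3) in black. The dotted line is the level of the lowest 30% of probe sets, 5.69. Cyp1b1 was between 9.09 and 9.79 in all arrays with estradiol and between 10.21 and 10.37 in all arrays without it, and the soy arrays of Cyp1a2 lay above all its other arrays.

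Cyp1b1, which hydroxylates estradiol mainly to its 4-hydroxy form, was lower with estradiol on both diets. In casein the 3 arrays read 10.37, 10.34 and 10.36, and in casein with estradiol 9.79, 9.48 and 9.67. The soy arrays read 10.21, 10.23 and 10.24, and those of soy with estradiol 9.61, 9.09 and 9.41. The groups with and without estradiol did not overlap on either diet. The spread was also wider with estradiol, with an SD of 0.15 and 0.26 (n = 3) against 0.02 in both groups without it.

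Cyp1b1 fell by 0.71 on casein (SE 0.11), a 1.63-fold decrease (limma adjusted p = 0.000577), and by 0.86 on soy (SE 0.11), a 1.81-fold decrease (limma adjusted p = 0.000157). The size of the change on soy was above that of 98.0% of all probe sets in the comparison, and that on casein above 95.5%. Both calls held in all 21 alternative analyses. The estradiol effect did not differ detectably between the diets, with a difference of -0.15 on the log2 scale and a 95% interval from -0.49 to 0.19 (limma adjusted p = 0.632).

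The soy diet alone left Cyp1b1 at 10.23 ± 0.02 (SD, n = 3) against 10.36 ± 0.02 in casein, groups that did not overlap but whose difference of -0.13 was not called (limma adjusted p = 0.553). Under estradiol, soy was at 9.37 ± 0.26 and casein at 9.65 ± 0.15, which overlapped (limma adjusted p = 0.399). That difference was -0.28, and it became -0.48 (limma adjusted p = 0.0423) when 2 arrays were left out, soy with estradiol replicate 1 and casein with estradiol replicate 2, those with raised muscle or epididymis markers. For Cyp1b1 these were the highest array of soy with estradiol (9.61) and the lowest of casein with estradiol (9.48). Leaving them out widens this difference by itself, so it adds no support. Over all probe sets the same omission took the calls from 1 to 611.

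Markers of several testicular cell types changed in the same arrays as Cyp1b1. The mean level of 7 Leydig cell markers was 9.79 to 9.91 in casein and 9.75 to 9.94 in soy, and 9.20 to 9.58 in casein with estradiol and 9.20 to 9.50 in soy with estradiol. The list was not uniform: Insl3 fell by 1.61 on casein and fell by 1.74 on soy, Hsd3b1 rose on both diets, and Lhcgr differed by 0.04 and 0.08 (limma adjusted p = 0.782 and 0.580). The mean of 6 macrophage markers was 7.61 to 7.83 in casein and 6.85 to 7.06 with estradiol, and 7.37 to 7.45 in soy and 7.02 to 7.23 with estradiol. On soy, Adgre1 fell by 0.99, Cd163 fell by 0.51 and Aif1 fell by 0.54, while Cd68, Csf1r and Tyrobp differed by 0.10, 0.11 and 0.13 and were not called. Within both estradiol groups the array with the lowest Cyp1b1, replicate 2, had the lowest Leydig marker mean and the highest macrophage marker mean. The 7 spermatid markers ranged from 11.68 to 12.51 with estradiol and from 12.91 to 13.02 without it, while the 8 measured Sertoli cell markers were higher, at 10.48 to 10.85 against 9.85 to 9.97 without estradiol. Their part in the Cyp1b1 result was not tested, and in whole-testis RNA fewer cells of a type and less RNA per cell cannot be told apart.

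**Figure D2:**
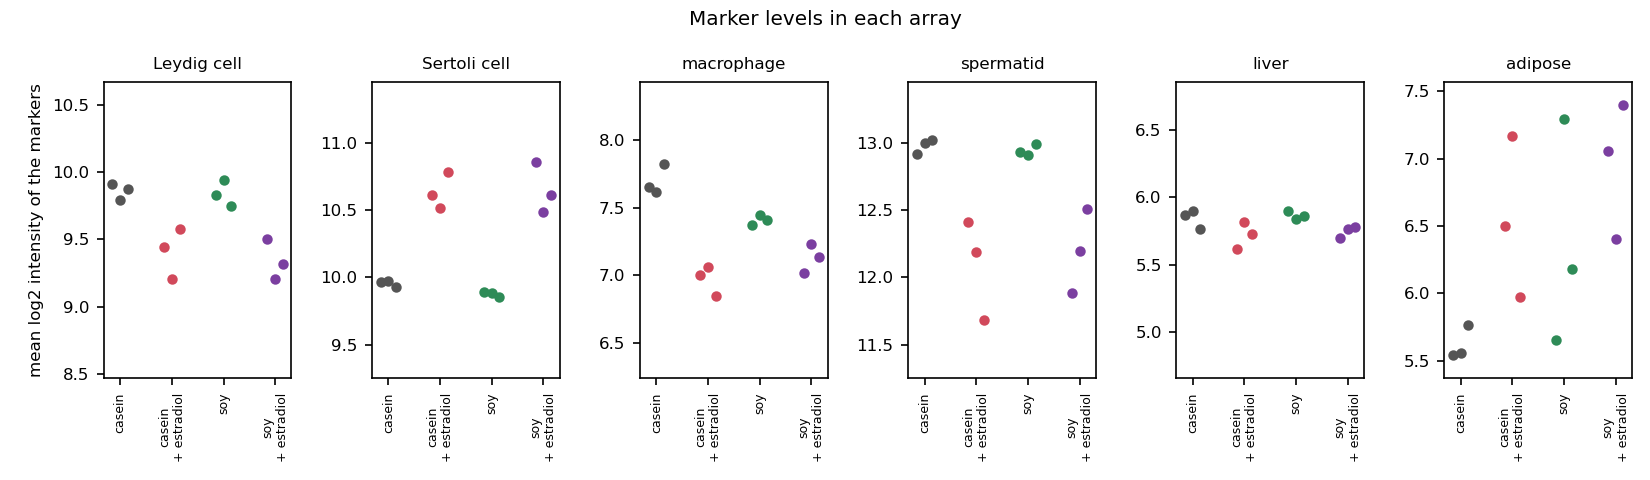
Mean log2 intensity of 6 marker lists (vertical axes, all spanning the same number of log2 units) in each array, with 1 point per array and the 4 groups along the horizontal axis. The means of Leydig, macrophage and spermatid markers were lower in every array with estradiol than in any array without it. That of Sertoli markers was higher in the same way, and Hsd3b1 among the Leydig markers rose. The liver mean was 5.62 to 5.82 with estradiol and 5.77 to 5.90 without it, and adipose markers varied within groups.

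Cyp1a2, a P450 known mainly from the liver that makes 2-hydroxyestrogens, was higher on soy without estradiol than in the other groups. The soy arrays read 6.31, 6.33 and 6.28. The casein arrays read 5.77, 5.88 and 5.94, those of casein with estradiol 5.77, 5.85 and 6.07, and those of soy with estradiol 5.75, 6.06 and 6.01. All 3 soy arrays lay above every other array, and the other 3 groups overlapped one another.

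Cyp1a2 rose by 0.44 with soy (SE 0.10), a 1.36-fold increase (limma adjusted p = 0.0162), a size above that of 96.7% of all probe sets. The call was lost without casein replicate 1 (limma adjusted p = 0.0590), soy replicate 1 (0.0573) or soy replicate 3 (0.0518). On the soy diet Cyp1a2 fell by 0.36 with estradiol (SE 0.10, limma adjusted p = 0.0110), and was no longer called when soy with estradiol replicate 1 was omitted (limma adjusted p = 0.0514). On casein the estradiol difference was 0.04, with a 95% interval from -0.17 to 0.25 (limma adjusted p = 0.802). The test of whether the estradiol effect differed between diets gave -0.40 and did not pass (limma adjusted p = 0.138). The comparisons of soy with casein and of estradiol on soy share the 3 soy arrays. The mean of 5 liver markers overlapped between soy and casein, at 5.84 to 5.90 in soy and 5.77 to 5.90 in casein, and Alb, the albumin gene, was at 5.83 and 5.80. In soy with estradiol that mean was 5.70 to 5.78, below all soy arrays. In casein with estradiol it was 5.62 to 5.82, which overlapped with casein. The 5 markers did not move together: Ttr, the transthyretin gene, rose by 0.42 with soy (limma adjusted p = 0.0260) and differed by -0.22 with estradiol on soy (0.111), while Apoa1 differed by -0.20 with soy (0.275). Of the adipose markers, the leptin gene Lep, within the low range, rose by 0.39 with soy (limma adjusted p = 0.0109) and fell by 0.38 with estradiol on soy (0.00228). The other adipose markers all differed upward with estradiol on soy, by 0.17 to 1.67, and Cfd was called (0.78, limma adjusted p = 0.0181). With soy, Cfd differed by -0.20 (limma adjusted p = 0.666), and the remaining adipose markers differed upward without a call. The part of the liver and adipose markers in the Cyp1a2 result was not tested.

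Cyp1a1, the most Ahr-responsive of the family, was in the low range in every array. It read 5.41, 5.38 and 5.44 in soy and 5.06, 5.07 and 5.25 in soy with estradiol, groups that did not overlap. It fell by 0.28 with estradiol on soy (SE 0.10, limma adjusted p = 0.0409). The call was lost in 10 of 19 alternatives, among them the omission of any of soy replicates 1, 2 and 3 or of soy with estradiol replicates 1 and 2 (limma adjusted p from 0.0688 to 0.119), and of casein replicate 2 (0.0518) or casein with estradiol replicate 1 (0.0540). The casein arrays read 5.34, 5.19 and 4.95 and those of casein with estradiol 5.26, 5.42 and 5.17, which overlapped. The difference of soy from casein was 0.25 (95% interval 0.04 to 0.47) and was not called (limma adjusted p = 0.145).

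Neither Ahr probe set was called in any of the 5 comparisons. Its 2 probe sets were at 5.08 ± 0.20 and 5.21 ± 0.11 (SD, n = 3) in casein, 5.28 ± 0.16 and 5.40 ± 0.20 in soy, 5.03 ± 0.05 and 5.27 ± 0.10 in casein with estradiol, and 5.08 ± 0.07 and 5.26 ± 0.06 in soy with estradiol. The soy means were the highest on both, by 0.20 and 0.19 over casein, and the groups overlapped (limma adjusted p = 0.263 and 0.268). On 1 of them, 1369146_a_at, soy and soy with estradiol did not overlap, and the difference of -0.20 was not called (limma adjusted p = 0.149).

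Sult1a1, a broad-specificity phenol sulfotransferase that also takes estrogens, was lower with estradiol on casein and not on soy. The casein arrays read 9.15, 9.13 and 9.05 and those of casein with estradiol 8.78, 8.76 and 8.63, which did not overlap. The soy arrays read 8.91, 9.05 and 9.08 and those of soy with estradiol 9.29, 9.09 and 9.01, which overlapped. Casein with estradiol was thus the lowest of the groups, below every array of the other 3.

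Sult1a1 fell by 0.38 with estradiol on casein (SE 0.08), a 1.30-fold decrease (limma adjusted p = 0.00428), and this call held in all 21 alternatives. On soy the difference was 0.12, with a 95% interval from -0.06 to 0.30 (limma adjusted p = 0.293). The test of the difference between the diets gave 0.50 (SE 0.12, limma adjusted p = 0.0494). That call was near the threshold and was lost in 14 of 20 alternatives, with adjusted p up to 0.129, including each omission of 1 array other than soy with estradiol replicate 3. Between the groups with estradiol, Sult1a1 was 0.41 higher on soy (95% interval 0.22 to 0.59) and the arrays did not overlap, but the difference was not called (limma adjusted p = 0.197, unadjusted p = 0.000342). It was called without soy with estradiol replicate 3 (difference 0.47, limma adjusted p = 0.0371). Among the macrophage markers, Cd68 and Tyrobp fell by 0.45 and 0.49 with estradiol on casein (limma adjusted p = 0.00819 and 0.00471). On soy they differed by 0.10 and 0.13, and their interactions were not called (limma adjusted p = 0.0870 and 0.0587). Adgre1, Cd163 and Aif1 fell on both diets, and Csf1r was called on neither. The part of these markers in the Sult1a1 result was not tested.

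Sult1e1, the estrogen sulfotransferase proper, lay in the low range and had the widest spread within a group of the 12 probe sets (SD 0.54 in soy, n = 3). It read 5.09, 4.30 and 4.74 in casein, 4.63, 4.79 and 4.42 in casein with estradiol, 4.34, 5.24 and 4.26 in soy, and 4.88, 4.37 and 4.36 in soy with estradiol. All groups overlapped and none of the comparisons was called. In 3 of the 4 groups the array with the highest Sult1e1 was also the array with the highest mean of the 2 measured epididymis markers, Adam7 and Defb1. Those arrays were casein replicate 1, with a marker mean of 6.28 against 5.02 and 5.20 in the other casein arrays, soy replicate 2, with 6.14 against 5.63 and 5.73, and soy with estradiol replicate 1, with 7.55 against 5.46 and 5.56. In casein with estradiol the array with the highest Sult1e1, replicate 2, had the lowest marker mean, 5.44 against 5.55 and 5.51. Defb1, with a mean of 5.47, was itself in the low range. The part of other tissue in these Sult1e1 values was not tested.

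Hsd17b2, which inactivates estradiol, was highest in casein, within the low range. The casein arrays read 5.56, 5.22 and 5.38, those of casein with estradiol 4.98, 5.03 and 4.97, those of soy 4.98, 5.20 and 5.14, and those of soy with estradiol 5.04, 5.06 and 5.05. After quantile normalization casein did not overlap with any other group, while soy and soy with estradiol overlapped. In the deposited values casein replicate 2, at 5.17, lay below soy replicate 3, at 5.24. Hsd17b2 fell by 0.40 with estradiol on casein (SE 0.09, limma adjusted p = 0.00397), a call that held in all 19 alternatives in which the probe set was tested. The difference of soy from casein was -0.28 (limma adjusted p = 0.0663), and without casein replicate 2 it was -0.36 and was called (limma adjusted p = 0.0338). It was smaller and not called with the deposited values (-0.16, limma adjusted p = 0.216) and with median centring (-0.18, 0.142). On soy the estradiol difference was -0.06 (limma adjusted p = 0.626), and the test between the diets did not pass (limma adjusted p = 0.159). The part of the cell type markers in the Hsd17b2 result was not tested.

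Hsd17b1, which makes estradiol from estrone, was at 5.77 ± 0.13 in casein, 5.70 ± 0.10 in casein with estradiol, 5.70 ± 0.06 in soy and 5.59 ± 0.24 in soy with estradiol (SD, n = 3). The groups overlapped, and none of its differences was called. Its estradiol difference was -0.06 on casein, with a 95% interval from -0.30 to 0.18, and -0.12 on soy, with an interval from -0.36 to 0.12.

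None of the 3 Cyp19a1 probe sets was called. The first, 1369444_at, was at 4.64 ± 0.04 in casein, 4.79 ± 0.16 in casein with estradiol, 4.75 ± 0.11 in soy and 4.68 ± 0.05 in soy with estradiol (SD, n = 3). The second, 1379643_at, ranged from 4.62 to 4.95 over all arrays. The third, 1382425_at, read 5.45, 5.29 and 5.60 in soy and 5.22, 5.14 and 5.27 in soy with estradiol, which did not overlap, and the difference of -0.24 was not called (limma adjusted p = 0.0680). It was called without soy replicate 2 (-0.32, limma adjusted p = 0.0302), with the deposited values (-0.30, 0.0316), with median centring (-0.32, 0.0230) and with a replicate block (0.0422). All 3 differences with estradiol were above 0 on casein, from 0.13 to 0.16, and below 0 on soy, from -0.24 to -0.04. In the test between the diets, 1382425_at gave -0.40 and did not pass (limma adjusted p = 0.133).

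**Figure D3:**
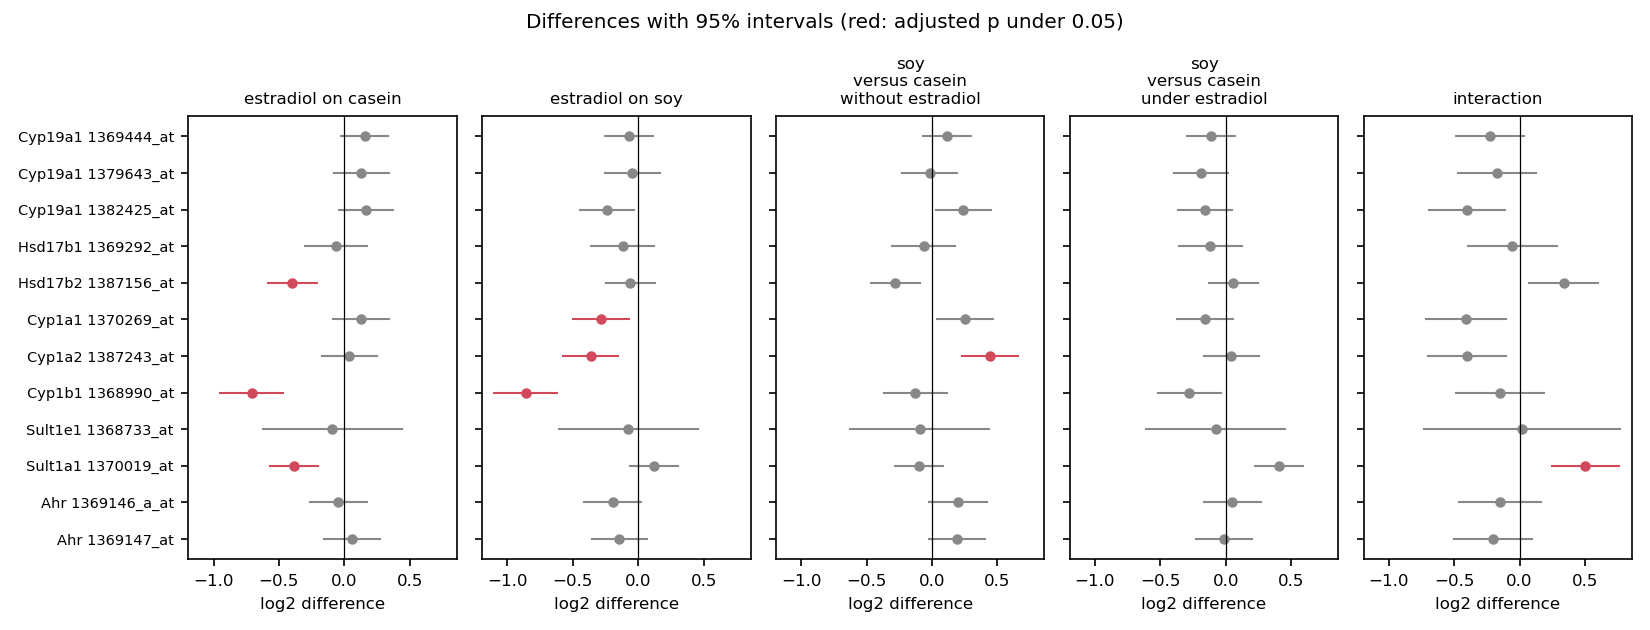
Log2 difference (horizontal axes) of the 12 probe sets in the 5 comparisons, as points with 95% intervals from limma, in red where the adjusted p was under 0.05. The interaction is the estradiol difference on soy minus that on casein. Cyp1b1 was called with estradiol on both diets, and Sult1e1 had the widest intervals.

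By comparison, estradiol on casein lowered 3 of the 12 probe sets (Hsd17b2, Cyp1b1 and Sult1a1) and raised 0, where 32.0% of all 31042 probe sets tested were called (16.5% higher and 15.5% lower). Estradiol on soy lowered 3 (Cyp1a1, Cyp1a2 and Cyp1b1) and raised 0, against 36.6% of all probe sets (19.1% higher and 17.5% lower). Soy against casein raised 1 (Cyp1a2), against 7.41% of all (4.80% higher and 2.61% lower). Between soy and casein under estradiol 0 were called by limma, against 0.00322% of all called. Before adjustment, 2 members had a limma p under 0.05 (Cyp1b1 and Sult1a1), and the share of all probe sets at that unadjusted level was not counted. The interaction was called for 1 (Sult1a1), against 2.15% of all (0.802% higher and 1.35% lower). Groups did not overlap for 3, 5, 4 and 2 members in the first 4 of these comparisons, against 50.8%, 48.1%, 33.2% and 13.6% of all probe sets. The members called with estradiol, 3 of 12 on each diet, were too few to read as a departure from the shares of all probe sets. Of the 12, 8 lay in the low range, where 15% and 13.5% of probe sets were called, against 39.3% and 46.5% above it. The median estradiol difference of the members was -0.00 on casein and -0.13 on soy, against 0.01 and -0.02 over all probe sets. The count on soy was 1, Cyp1b1, without soy with estradiol replicate 1, also where casein with estradiol replicate 2 was left out with it.

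The scaling of the arrays affected the soy comparison, both in the low range and among the brighter members. In the deposited values without quantile normalization, the lowest 30% of probe sets had a median difference of 0.12 between soy and casein, against 0.00 after it. On those values 4 members rose with soy, namely Cyp1a2, Cyp1a1, 1 Cyp19a1 probe set and 1 Ahr probe set. With arrays centred on their medians 3 rose (Cyp1a2, Cyp1a1 and a Cyp19a1 probe set) and 1 fell (Sult1a1). The share of rises among all calls was 64.8% after quantile normalization, 62.1% without it and 48.1% with median centring, and for the interaction 37.3%, 35.6% and 48.2%. The rise of Cyp1a2 was called under all 3 scalings. The difference of Cyp1b1 between soy and casein was -0.26 with the deposited values and -0.29 with median centring, against -0.13 (limma adjusted p = 0.108, 0.0750 and 0.553). That of Sult1a1 was -0.24 and -0.27, against -0.10 (limma adjusted p = 0.0582, 0.0387 and 0.552). With estradiol on soy, both other scalings called 4 members lower, the third Cyp19a1 probe set in addition.

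The genes of the neighbouring pathway steps changed in both directions with estradiol, each read on its probe set with the highest mean. Of 11 measured genes that act upstream of aromatase, 1 rose and 4 fell on casein, and 3 rose and 4 fell on soy (median difference -0.07 and 0.02, against 0.01 and -0.02 over all probe sets). For these and the lists that follow, 32.0% of all probe sets were called on casein and 36.6% on soy, and 39.3% and 46.5% of those above the low range. Hsd17b3, which makes testosterone from androstenedione, fell by 1.20 on casein (SE 0.09) and by 1.05 on soy (limma adjusted p = 4.80e-06 and 2.80e-05). Hsd3b1, which makes progesterone from pregnenolone, rose by 0.87 and 0.93 (limma adjusted p = 0.000729 and 0.000381). Por, the electron donor of microsomal P450 enzymes, aromatase included, fell by 0.22 on casein (limma adjusted p = 0.0155), and omitting casein replicate 3 or casein with estradiol replicate 3 ended the call (limma adjusted p = 0.0550 and 0.0501). Por differed by -0.14 on soy (limma adjusted p = 0.106). Nr5a1, a nuclear receptor that drives steroidogenic genes, rose by 0.31 on soy (limma adjusted p = 0.00288) and differed by 0.13 on casein (limma adjusted p = 0.143).

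Of 9 measured other members of the 17beta-hydroxysteroid dehydrogenase group, which includes Hsd17b3, 1 rose and 2 fell on each diet, with medians of -0.11 on casein and 0.05 on soy. Hsd17b12, which acts in fatty acid elongation and can reduce estrone, rose by 0.44 on casein and 0.52 on soy (limma adjusted p = 0.00652 and 0.00197). Hsd17b13, a lipid droplet protein, fell by 0.83 and 0.46 (limma adjusted p = 0.00105 and 0.0248). Its call on soy was lost without soy replicate 3 (limma adjusted p = 0.0869) or soy with estradiol replicate 1 (0.108).

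Of 13 measured genes of conjugation, deconjugation and export, 2 rose and 2 fell on casein, and 3 rose and 2 fell on soy, with medians of 0.05 and 0.03. Abcc1, an exporter of glutathione and sulfate conjugates, rose by 0.60 and 0.67 (limma adjusted p = 0.000232 and 0.000112). Abcg2, an exporter of estrogen sulfates, fell by 0.51 on casein (limma adjusted p = 0.00786) and differed by -0.32 on soy (limma adjusted p = 0.0641). Papss1, which makes the sulfate donor of the sulfotransferases, rose by 0.55 on soy (limma adjusted p = 0.00141) and differed by 0.05 on casein (limma adjusted p = 0.724). Sts, the steroid sulfatase, rose by 0.33 on soy (limma adjusted p = 0.00745) and differed by 0.19 on casein (limma adjusted p = 0.0998). Sult1c2, within the low range, rose by 0.35 on casein (limma adjusted p = 0.0135), which omitting casein replicate 3 ended (limma adjusted p = 0.0515).

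Of 9 measured genes around the aryl hydrocarbon receptor, 2 rose and 1 fell on casein, and 2 rose and 2 fell on soy, with medians of 0.03 and -0.03. Hsp90ab1, a chaperone that holds the receptor in the cytosol, rose by 0.91 and 0.87 (limma adjusted p = 5.25e-05 and 8.52e-05). Its cochaperone gene Ptges3 rose by 0.29 on casein (limma adjusted p = 0.00905), a call lost with median centring (limma adjusted p = 0.0503). Nqo1, a quinone reductase induced through this receptor and through Nfe2l2, fell by 0.50 and 0.58 (limma adjusted p = 0.00373 and 0.00127). Arnt, the receptor's partner, fell by 0.48 on soy (limma adjusted p = 0.000394) and differed by -0.13 on casein (limma adjusted p = 0.185). Hsp90ab1, Nqo1 and Arnt had other cellular roles besides this pathway.

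In both comparisons of soy with casein, and in the interaction, limma called 0 genes of these 4 lists. Without estradiol, 1 of 11 upstream genes, 1 of 9 dehydrogenases, 2 of 13 conjugation genes and 3 of 9 receptor pathway genes had an unadjusted p under 0.05. The smallest adjusted p of the first 3 lists belonged to Nr5a1 at -0.17 (limma adjusted p = 0.142), Hsd17b13 at -0.47 (0.0647) and Papss1 at -0.31 (0.0881). The receptor pathway genes with the smallest p there were Ahrr, the repressor of the receptor, at 0.24 (limma adjusted p = 0.0655), Arnt2 at -0.31 (0.0803) and Hsp90ab1 at 0.22 (0.178). Under estradiol the counts with an unadjusted p under 0.05 were 2, 2, 1 and 2, and for the interaction 1, 1, 2 and 4. The share of all probe sets with an unadjusted p under 0.05 was not counted, so these counts cannot be read as an excess or a lack.

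**Figure D4:**
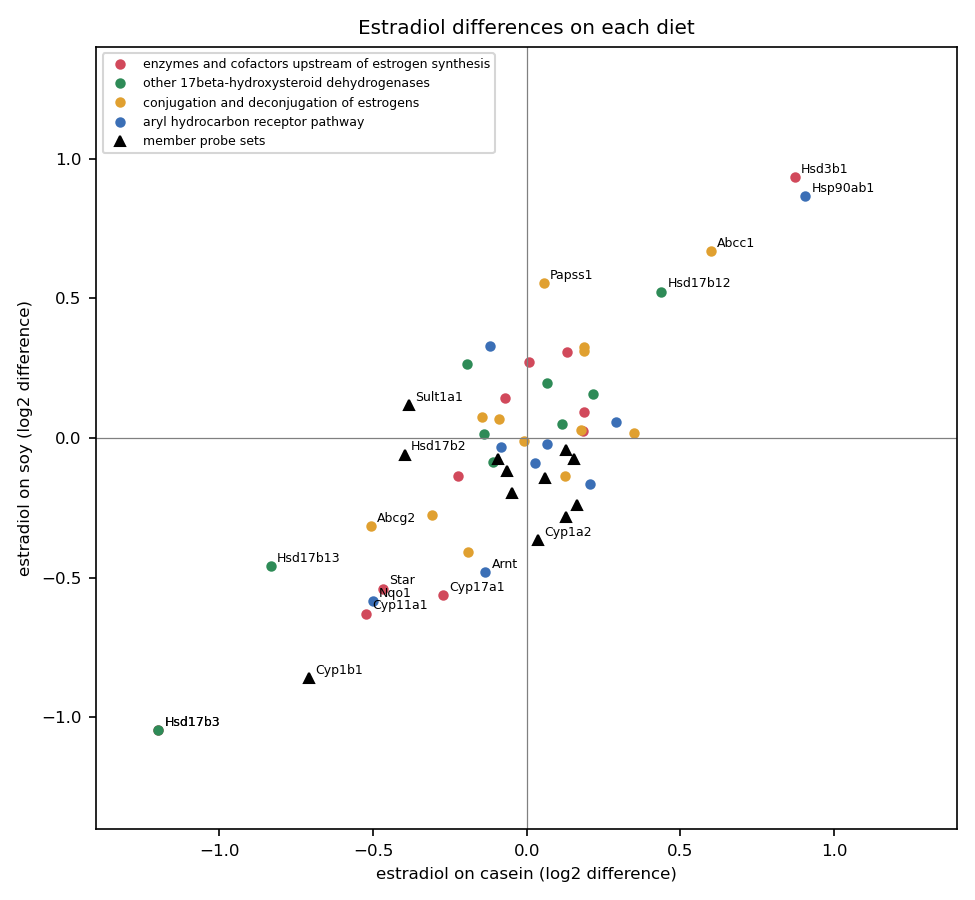
Log2 difference with estradiol on casein (horizontal axis) and on soy (vertical axis), 1 point per gene of the 4 pathway lists (circles) and 1 triangle per member probe set; the axes share no arrays. Hsd17b3 lies lowest on both axes, Cyp1b1 at -0.71 and -0.86, Hsd3b1 and Hsp90ab1 highest, and Sult1a1 lies left of 0 and above it.

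The genes whose array profiles were most like those of the members were found from the root mean square difference of centred log2 values over the 12 arrays, given as a description. Nearest to Cyp1b1 were Ctsh, a lysosomal cysteine protease (0.12), Neu1, a lysosomal sialidase (0.13), and Pink1, a mitochondrial kinase (0.13), against an SD of 0.44 for Cyp1b1 itself. Ctsh was at 10.86 ± 0.07 in casein, 10.16 ± 0.04 in casein with estradiol, 10.72 ± 0.11 in soy and 9.95 ± 0.41 in soy with estradiol (SD, n = 3). Nearest to Sult1a1 were Reep5, a protein of the endoplasmic reticulum membrane (0.10), Ggta1, a galactosyltransferase (0.10), and Cbs, cystathionine beta-synthase (0.10), against an SD of 0.19. Reep5 was at 9.52 ± 0.05 in casein, 9.10 ± 0.06 in casein with estradiol, 9.41 ± 0.06 in soy and 9.40 ± 0.20 in soy with estradiol. Nearest to Cyp1a2 were Ephb3, an ephrin receptor (0.08), Tgm4, a transglutaminase (0.08), and Apoc4, an apolipoprotein (0.09), against an SD of 0.21, and Ephb3 was at 6.81 ± 0.03, 6.89 ± 0.05, 7.25 ± 0.04 and 6.93 ± 0.06 in casein, casein with estradiol, soy and soy with estradiol. In the low range, Hsd17b2 was nearest to Lgr5, Igf2 and Fgf12 (0.05 to 0.07), and Cyp1a1 to Npy4r (0.04), F8a1 (0.06) and a probe set annotated to a microRNA gene.

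The within-group correlation of arrays ran from 0.988 to 0.997 over all probe sets, and array medians from 6.72 to 6.79 in the deposited values. The testis markers were present at high levels, with spermatid markers at 11.68 to 13.02 in all arrays. Adipose markers ranged from 5.55 to 5.77 in casein and from 5.65 to 7.40 in the other groups, and striated muscle markers reached 8.50 in casein with estradiol replicate 2, against 6.56 to 6.92 elsewhere. Markers of peritubular myoid cells (8.24 to 8.76), spermatogonia (at most 7.48), pachytene spermatocytes (10.99 to 11.34), endothelium (6.13 to 6.37) and erythroid cells (9.18 to 9.62) spanned less than the spermatid markers. The pachytene means were 10.99 to 11.19 with estradiol and 11.20 to 11.34 without it, which did not overlap. Endothelial means did not overlap either, at 6.13 to 6.20 with estradiol and 6.21 to 6.37 without it. Such means can hide changes in both directions. With estradiol on casein, the pachytene marker Sycp1 rose by 0.63 and Calr3 fell by 0.82 (limma adjusted p = 0.000322 and 0.000145). Among the spermatogonial markers, Gfra1 fell by 0.81 and Dmrt1 rose by 0.51 (limma adjusted p = 0.000726 and 0.0299).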

How the data were processed

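Testis RNA of 12 samples in 4 groups of 3 was measured on Affymetrix rat arrays. The authors deposited 1 intensity per probe set and array from GCOS, whose version was not given, per the submitters' processing notes. That the deposited intensities are on a log2 scale was read from the values. For background correction, summarisation and normalization, the methods are not given in the sources used here. Of 31099 probe sets in the file, 57 were controls and were left out. Lower quartiles, medians and upper quartiles of the arrays differed by 0.166, 0.069 and 0.185, and quantile normalization was applied to the other 31042. Symbols came from the platform annotation (20832 probe sets with 1 symbol, 436 with several, 9831 with none), in which all 12 member probe sets matched RefSeq genes, Sult1e1 by accession and the others by Entrez ID. RefSeq's build GRCr8 was used for promoters and for neighbouring genes only.

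All 4 groups entered 1 model in limma 3.58.1 (R 4.3.3) with a trend in eBayes and 8 residual degrees of freedom. P-values were adjusted by Benjamini-Hochberg over all 31042 probe sets, and those under 0.05 were called. The median standard error of a difference was 0.09, and the number of arrays limits precision. On simulated data for estradiol on casein over 31042 probe sets, the calls recovered 57.0% of 100 features shifted by 0.5 and 95.0% of 100 shifted by 1 on the log2 scale, and 8 of 160 were false. The simulation used independent noise and shifted far fewer probe sets than the 9943 called in the data. Its rates therefore check the procedure and do not describe the real comparison. The rule for named genes took all member probe sets, up to 3 genes with the smallest p of each of 4 pathway lists per comparison, and the 3 genes nearest in profile to each called member. Members, lists and markers were chosen with earlier results of these data known, and so were the pairs of arrays left out together. Alternatives were the deposited values, median centring, filters leaving out the lowest 30% or 50%, no trend, only the compared groups, a replicate block and omission of arrays.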

Additional observations from a re-analysis of the deposited data

Results flagged for a closer look

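Sult1a1 drew attention because the estradiol effect differed between the diets by a test of the difference itself. The interaction was 0.50 on the log2 scale (SE 0.12, limma adjusted p = 0.0494), with a fall of 0.38 on casein and a difference of 0.12 on soy. All 3 casein with estradiol arrays, at 8.63 to 8.78, lay below the other 9 arrays, which ran from 8.91 to 9.29. The adjusted p ranged from 0.0187 to 0.129 over 20 alternatives, and 6 of them kept the call.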

How the results depend on the processing

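The calls of Cyp1b1 with estradiol on both diets, and of Sult1a1 and Hsd17b2 with estradiol on casein, held in every alternative in which they were tested. Over 60 member differences and 1158 alternative values, 29 calls were lost, 13 gained, and 51 values changed sign, none of them called (smallest adjusted p 0.378). With 1 array left out, the number of member probe sets called ranged from 3 to 3 for estradiol on casein, 1 to 3 on soy, 0 to 2 for soy against casein, 0 to 1 under estradiol and 0 to 1 for the interaction. The 50% filter, which keeps 2 members, left 1 call for estradiol on soy and 0 for soy against casein. Soy against casein had 4 calls with the deposited values and 4 with median centring. Leaving out soy with estradiol replicate 1 together with casein with estradiol replicate 2 gave 1 call for estradiol on soy, 1 for soy against casein under estradiol and 0 for the interaction, and leaving it out together with casein with estradiol replicate 3 gave 0 for the interaction. The cause was not tested. Both pairs were chosen after the data had been seen.

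Over all probe sets, the 2299 calls of soy against casein became 5332 with the deposited values, 5301 with median centring, 3501 with only those groups, 1243 with the 50% filter, and as few as 929 with 1 array left out. The 668 interaction calls became 1141, 1151 and 434 with the deposited values, median centring and the 50% filter, 362 with a replicate block and as few as 123 with 1 array left out. Soy against casein under estradiol had 1 call, 263 without soy with estradiol replicate 3 and 611 without that pair of arrays. Estradiol on casein went from 9943 to 6532 calls without casein with estradiol replicate 3. What the replicate numbers stand for was not given, and the main model did not pair arrays by them. The deviations of same-numbered arrays correlated at -0.31 to 0.30 (median -0.00 over 18 pairs, 3 above 0.1), and 4 of 12 arrays correlated best with their own number. Such correlations cannot decide whether the numbers pair the arrays. With the replicate block the interaction had 0 member calls, and for estradiol on soy the count stayed at 3, with Cyp1a1 lost (adjusted p = 0.0558) and Cyp19a1 1382425_at gained (0.0422).

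Sign changes among differences that were not called were as follows. With the deposited values, estradiol on casein gave 0.024 for Ahr 1369146_a_at, soy against casein gave 0.12 for Cyp19a1 1379643_at, 0.047 for Hsd17b1 and 0.034 for Sult1e1, and the interaction gave -0.11 for Sult1e1. With median centring, soy against casein gave 0.090, 0.019 and 0.0058 for the same 3, and the interaction gave 0.022 for Cyp1b1 and -0.082 for Sult1e1. Without the pair that held soy with estradiol replicate 1 and casein with estradiol replicate 2, estradiol on soy gave 0.0024 for Cyp19a1 1379643_at, and the interaction 0.030 for Hsd17b1 and -0.063 for Sult1e1. Without the pair with casein with estradiol replicate 3, the values were -0.049 for Cyp1a2 and 0.0031 for Sult1e1 (estradiol on casein), 0.0029 for Cyp19a1 1379643_at (estradiol on soy), 0.0089 for Ahr 1369147_at (soy against casein under estradiol), and 0.012 for Hsd17b1 and -0.25 for Sult1e1 (interaction). With 1 array left out, estradiol on casein ranged from -0.049 to 0.10 for Cyp1a2, -0.30 to 0.096 for Sult1e1, -0.15 to 0.040 for Ahr 1369146_a_at and -0.0024 to 0.11 for Ahr 1369147_at. Estradiol on soy ranged from -0.12 to 0.033 for Cyp19a1 1379643_at and -0.25 to 0.24 for Sult1e1. Soy against casein ranged from -0.094 to 0.069 and from -0.41 to 0.094 for the same 2. Under estradiol it ranged from -0.021 to 0.14 for Cyp1a2, -0.25 to 0.013 for Sult1e1 and -0.066 to 0.027 for Ahr 1369147_at. The interaction ranged from -0.19 to 0.037 for Hsd17b1 and -0.17 to 0.33 for Sult1e1.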
